A study of Homo sapiens with 12 samples.

Results

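Transcript levels of the death receptors FAS and TRAIL receptors, with their adaptor, inhibitor and ligand, were described in HLE-B3, a human lens epithelial cell line that has been immortalized. The 8 genes, FAS, TNFRSF10A, TNFRSF10B, TNFRSF10C, TNFRSF10D, FADD, CFLAR and TNFSF10, were taken by name from the 58735 genes of the deposited tables, and all 8 were found there. WT cells and cells in which ATG7, a gene required for autophagy, had been targeted with CRISPR/Cas9 (ATG7 KO) were either untreated and collected at 0 h, or treated with 200 μM H2O2 for 12 h. Each of these 4 groups held 3 biological replicates. All cells grew in the same medium with serum, so WT and ATG7 KO cells shared everything the labels list except the genotype. The KO lines were grown from single picked clones, and the labels do not say which clone was sequenced, so an effect of ATG7 loss and a property of a clone cannot be told apart. Likewise, H2O2 and 12 h in culture cannot be told apart.

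FAS and the TRAIL receptors are cell surface proteins of the TNF receptor family. When their ligand binds, the intracellular death domains of FAS, TNFRSF10A (also called DR4) and TNFRSF10B (DR5) gather the adaptor FADD, which in turn gathers the protease caspase-8 and starts apoptosis. CFLAR encodes c-FLIP, a relative of caspase-8 that competes for the same complex. TNFRSF10C and TNFRSF10D (DcR1 and DcR2) bind TRAIL without a working death domain and are known as decoy receptors, and TNFSF10 encodes TRAIL itself. Several of these receptor genes are known targets of the tumour suppressor p53. Loss of lens epithelial cells by apoptosis is a known feature of cataract.

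The libraries held from 15602183 to 17659496 reads assigned to genes. Untreated ATG7 KO replicate 1 stood apart: its log2 expression correlated at r = 0.969 with each of the other 2 libraries of its group, against 0.991 to 0.992 for the other 10 pairs of replicates, and where a count or a called value printed here moved without it, both are given. Read counts did not check the knockout label: ATG7 was at 3.42 to 3.78 FPKM (fragments per kilobase of gene length, scaled to library size) in untreated and 2.11 to 2.35 FPKM in treated ATG7 KO libraries, against 2.21 to 2.81 and 1.91 to 1.99 FPKM in WT libraries, and an edit that stops the protein need not lower its transcript. Of the lens epithelial markers, CDH2 (163 FPKM in untreated WT cells) and SIX3 (3.06) were clearly read, PAX6 was at 1.27, and FOXE3, CRYAA, CDH1, PROX1 and MAF were below 0.1 in every group, so the lens label rests on few markers. CRYAB, another listed marker, passed the filter on low counts only in comparisons with treated cells. A rise with H2O2 was thus fixed by that filter, and no test of it is given. PITX3 is not reported here. Summed over a list, markers of T and NK cells reached at most 0.419 FPKM in any library, those of macrophages 2.54 and those of lens fibres 2.73. The fibroblast list summed to between 247 and 655 FPKM, nearly all of it COL1A1, which was lower after H2O2. The sum was 360 to 512 FPKM in untreated ATG7 KO and 623 to 655 FPKM in untreated WT libraries. Of its 4 genes tested between the untreated lines 0 passed as lower in ATG7 KO cells, and 1, LUM, was higher by 5.80 log2 units (edgeR, adjusted p = 6.71e-05). Without untreated ATG7 KO replicate 1, COL1A1 (-0.36) and COL1A2 (-0.28) also passed as lower and PDGFRB (0.70) as higher. The part of this list in the results was not tested.

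H2O2-treated cells had higher transcript levels of FAS and of 3 TRAIL receptors in both lines. In such bulk samples, fewer cells that express a gene and less of its RNA per cell cannot be told apart. TNFRSF10B, the most abundant of the 8 genes, was at about 36 FPKM before and about 203 FPKM after treatment in WT cells. The levels of TNFRSF10A and TNFRSF10B in the lines overlapped, while the decoy TNFRSF10D was lower in ATG7 KO cells, with or without H2O2. FADD was higher in the KO line with or without H2O2, but this passed in only 8 of 17 settings run with H2O2 and 12 of 17 without. CFLAR rose with H2O2 in WT cells, and after H2O2 it was lower in ATG7 KO cells. The difference in response between the lines passed the test for 1 gene, FAS. Leaving TNFRSF10C aside, it passed for FAS and CFLAR when untreated ATG7 KO replicate 1 was left out.

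**Figure D1:**
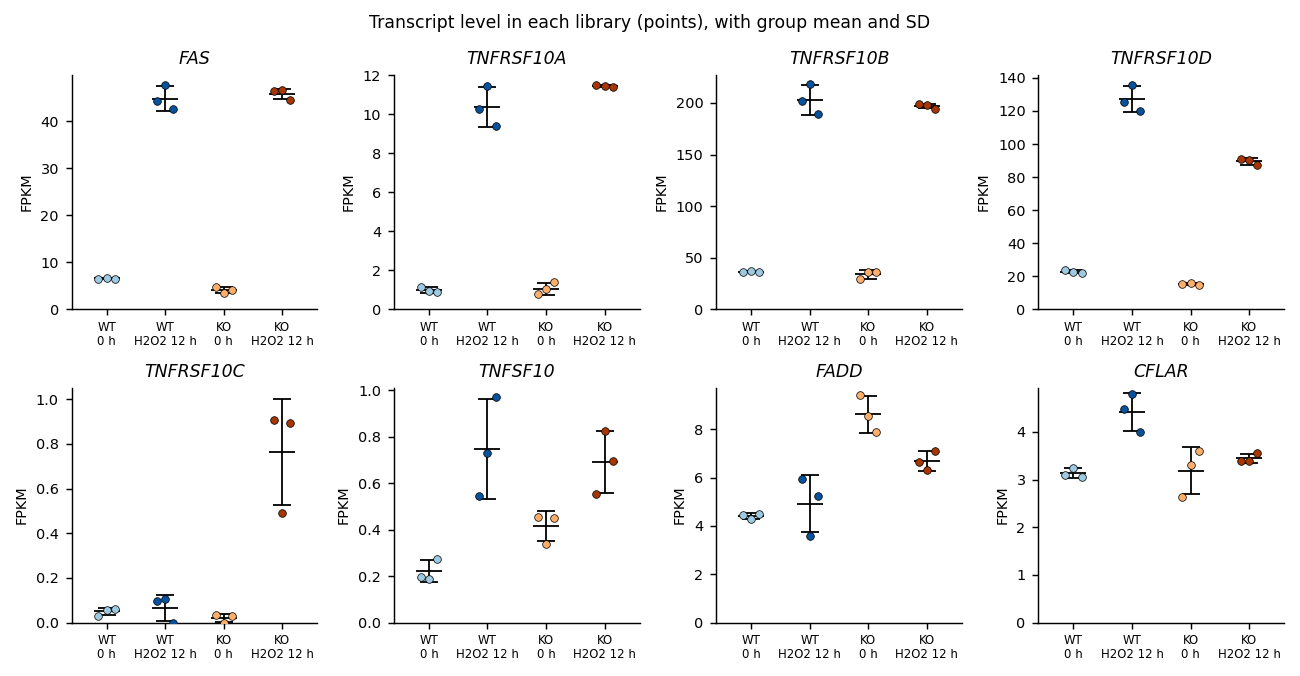
FPKM of the 8 genes in each of the 12 libraries (points, replicates 1 to 3 from left to right), with the group mean and SD (bars), on a separate linear axis from 0 for each gene. The 6 H2O2-treated libraries lie above the 6 untreated libraries for FAS, TNFRSF10A, TNFRSF10B and TNFRSF10D, whereas TNFRSF10C was near 0 in 3 of the 4 groups.

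The levels were ordered within a group by FPKM, which divides the reads of a gene by the joined length of all its annotated exons. This length was 22529 bases for CFLAR and 1841 to 5158 bases for the other members, so the place of CFLAR depends on it. In untreated WT cells the order was TNFRSF10B, TNFRSF10D, FAS, FADD, CFLAR, TNFRSF10A, TNFSF10 and TNFRSF10C, from 36.4 down to 0.0497 FPKM, and the libraries of no neighbours in this order overlapped. In treated WT cells TNFRSF10A moved up to the fourth place, and FADD (4.92 ± 1.20 FPKM) and CFLAR (4.42 ± 0.40) behind it overlapped. In untreated ATG7 KO cells FADD (8.62 ± 0.77) stood before FAS (4.11 ± 0.66), and FAS overlapped with CFLAR (3.18 ± 0.49). In treated ATG7 KO cells the order of the first 6 genes was that of treated WT cells, and the lowest pair, TNFRSF10C (0.763 ± 0.238) and TNFSF10 (0.692 ± 0.135), overlapped.

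The question of which receptors respond to H2O2 was addressed with the quasi-likelihood test of edgeR on counts, at a Benjamini-Hochberg adjusted p below 0.01 over all genes tested. In WT cells 6 of the 7 genes tested rose and 0 fell, while 30.9% of all genes tested rose and 30.1% fell. DESeq2 and limma also gave 0 falling genes, and edgeR gave 0 at an unadjusted p below 0.05. TNFRSF10C had too few reads to be tested there. In ATG7 KO cells 4 of the same 7 genes rose and 0 fell, against 13.6% and 12.4% of all genes (29.8% and 28.6% without untreated ATG7 KO replicate 1, with 4 members again). TNFRSF10C passed the filter on low counts only through the treated ATG7 KO libraries, in which it was high, so its calls were fixed by that filter and are left out of the counts of members. In the KO line DESeq2 and limma likewise gave 0 falling genes, and 1 gene, FADD, fell at an unadjusted p below 0.05. The median log2 fold change of these 7 members was 2.47 in WT and 2.53 in ATG7 KO cells, beside -0.01 and -0.03 over all genes tested. The study's own cut-offs also require a log2 fold change beyond 1 and an FPKM above 1. In each line FAS, TNFRSF10A, TNFRSF10B and TNFRSF10D, 4 genes, met them, against 12.5% of the genes tested in WT cells and 11.2% in ATG7 KO cells.

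FAS, the receptor of FAS ligand, lies on chromosome 10 at 88990582 to 89015785 on the plus strand (GRCh38). It was read at 6.46, 6.74 and 6.5 FPKM in untreated WT cells and at 44.2, 47.7 and 42.5 FPKM after H2O2. In ATG7 KO cells it was at 4.82, 3.52 and 4.0 FPKM without and 46.3, 46.5 and 44.5 FPKM with H2O2. The treated libraries of the lines overlapped, whereas every untreated ATG7 KO library was below every untreated WT library. FAS rose by 2.76 ± 0.06 on the log2 scale (SE) in the WT line, a 6.79-fold change (adjusted p = 3.84e-38), and by 3.47 ± 0.13 in the KO line, an 11.1-fold change (adjusted p = 1.12e-05). Among the log2 fold changes of all genes tested, FAS ranked 517 of 15913 in WT and 168 of 15475 in ATG7 KO cells.

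The response of FAS was larger in ATG7 KO cells by 0.71 ± 0.14 log2 units (95% interval 0.42 to 1.0, adjusted p = 0.00254 for the interaction). Leaving TNFRSF10C aside, it was the 1 of 7 members whose response differed upward at this threshold, and 0 differed downward, beside 7.02% and 7.01% of all genes tested. At an unadjusted p below 0.05, 3 members differed downward. DESeq2 and limma called 0 downward. Without untreated ATG7 KO replicate 1, 1 of the 7, FAS, differed upward and 1, CFLAR, downward, beside 17.8% and 16.3% of all genes. When untreated ATG7 KO replicate 1 was left out, FAS differed by 0.84 (adjusted p = 1.65e-13). The groups with H2O2 differed by 0.03 ± 0.04 (95% interval -0.06 to 0.11), and the untreated groups by -0.68 ± 0.13. This untreated difference had an adjusted p of 0.0126, above the threshold, and of 2.4e-14 without untreated ATG7 KO replicate 1, the KO library with the highest FAS level.

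TNFRSF10A and TNFRSF10B are the TRAIL receptors that carry a death domain, and both lie on chromosome 8, on the minus strand, at 23190452 to 23225126 and 23020133 to 23069179. TNFRSF10A was at 1.17, 0.940 and 0.878 FPKM in untreated and 10.3, 11.4 and 9.38 FPKM in treated WT cells. The ATG7 KO libraries were at 0.760, 1.03 and 1.37 FPKM without and at 11.5, 11.5 and 11.4 FPKM with H2O2. The untreated and the treated libraries did not overlap in either line, while WT and ATG7 KO libraries overlapped at both times. TNFRSF10A had the largest log2 change of the members tested in WT cells, 3.37 ± 0.13 (10.4-fold, adjusted p = 7.29e-28), and it rose by 3.43 ± 0.20 in ATG7 KO cells (10.8-fold, adjusted p = 4.63e-05). The responses differed by 0.05 ± 0.24, with a 95% interval from -0.47 to 0.58, which turned to -0.12 without untreated ATG7 KO replicate 1. Its untreated value rests on 37 to 75 reads per library.

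TNFRSF10B was at 36.3, 37.1 and 35.8 FPKM in untreated WT cells and at 202, 218 and 189 FPKM after H2O2. The ATG7 KO libraries were at 29.1, 36.4 and 36.1 FPKM without and 199, 198 and 195 FPKM with H2O2, and the lowest untreated value was that of replicate 1. Each treated library exceeded each untreated library, and the lines overlapped at both times. The log2 change was 2.47 ± 0.05 in WT (5.55-fold, adjusted p = 7.75e-40) and 2.54 ± 0.13 in ATG7 KO cells (5.80-fold, adjusted p = 2.83e-05). After H2O2 the lines differed by -0.05 ± 0.04 log2 units, with a 95% interval from -0.13 to 0.02, and without treated WT replicate 3 by -0.10 (adjusted p = 0.00249). The interval of the difference between the responses was -0.22 to 0.34, around 0.06, and without untreated ATG7 KO replicate 1 the difference was -0.03.

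TNFRSF10D, a decoy with a truncated death domain, lies between the other TRAIL receptor genes on chromosome 8 (23135588 to 23164030, minus strand). It was at 24.0, 22.6 and 21.9 FPKM in untreated WT cells and at 125, 136 and 120 FPKM in treated WT cells. In ATG7 KO cells it was at 15.4, 15.8 and 14.9 FPKM without and at 90.9, 90.5 and 87.0 FPKM with H2O2. No library of ATG7 KO cells reached the lowest WT library of the same time. TNFRSF10D rose with H2O2 by 2.47 ± 0.05 in WT (adjusted p = 9.39e-39) and 2.53 ± 0.09 in ATG7 KO cells (adjusted p = 6.96e-06).

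TNFRSF10D was lower in ATG7 KO than in WT cells by similar amounts at both times. The log2 difference was -0.51 ± 0.04 after H2O2 (adjusted p = 3.22e-13), or 0.700 of the WT level, and -0.57 ± 0.09 without H2O2 (adjusted p = 0.0053), or 0.673 of the WT level. The responses differed by 0.06 ± 0.10 (95% interval -0.15 to 0.28). The untreated difference did not pass when any single library other than ATG7 KO replicate 1 was left out: its size then lay between -0.59 and -0.54, with adjusted p between 0.0208 and 0.0427. Without ATG7 KO replicate 1 it was -0.56 (adjusted p = 2.01e-17).

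TNFRSF10C, which encodes the decoy that is anchored to the membrane by a lipid (chromosome 8, 23102590 to 23117437, plus strand), was close to absent in 3 groups. It had 1, 2 and 2 reads in untreated WT cells, 3, 3 and 0 reads in treated WT cells, and 1, 0 and 1 reads in untreated ATG7 KO cells. The treated ATG7 KO libraries held 29, 15 and 29 reads, or 0.907, 0.489 and 0.895 FPKM, and stood above all other libraries. The summed reads per total count gave a ratio of 11.8 between treated ATG7 KO and treated WT cells, with a counting interval (exact, 95%) of 5.15 to 33.1, and of 36.4 between treated and untreated ATG7 KO cells, with an interval of 9.73 to 306. These intervals cover counting error only. TNFRSF10C was filtered out for low counts in the pairs without treated ATG7 KO cells, so no test of it is given, and it stayed below an FPKM of 1. Of its 50-base words, 35.4% also occur in other annotated genes, all of them in 2 transcripts that overlap it on the same strand, AC107959.4 and AC107959.5, which held 43 and 0 reads in all libraries together. How reads over these were counted is not given, so the level of TNFRSF10C may depend on it.

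Per library, the decoys TNFRSF10C and TNFRSF10D made up 39.0%, 37.3% and 37.5% of the FPKM of the 4 TRAIL receptors in untreated WT cells and 37.2%, 37.2% and 37.7% in treated WT cells. The share was 34.1%, 29.7% and 28.6% in untreated and 30.4%, 30.3% and 29.9% in treated ATG7 KO cells. The share of every ATG7 KO library was below that of every WT library, while within each line the treated and untreated libraries overlapped. TNFRSF10C reached at most 0.907 FPKM in a library, so the share is nearly that of TNFRSF10D. It largely restates the difference of TNFRSF10D between the lines and is no separate result. The difference between the lines was -7.17 percentage points with and -7.16 without H2O2, each with p = 0.1 in a two-sided exact permutation test, the smallest p that 3 against 3 libraries allow. With H2O2 the share moved by -0.59 points in WT (p = 0.5, exact permutation test) and by -0.60 points in ATG7 KO cells (p = 1, exact permutation test), and the latter turned to 1.06 points without untreated ATG7 KO replicate 1. The summed level of the 4 receptors was 60.3 ± 1.4 FPKM in untreated and 341 ± 24 FPKM in treated WT cells, and 50.3 ± 4.4 and 299 ± 4 FPKM in ATG7 KO cells.

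**Figure D2:**
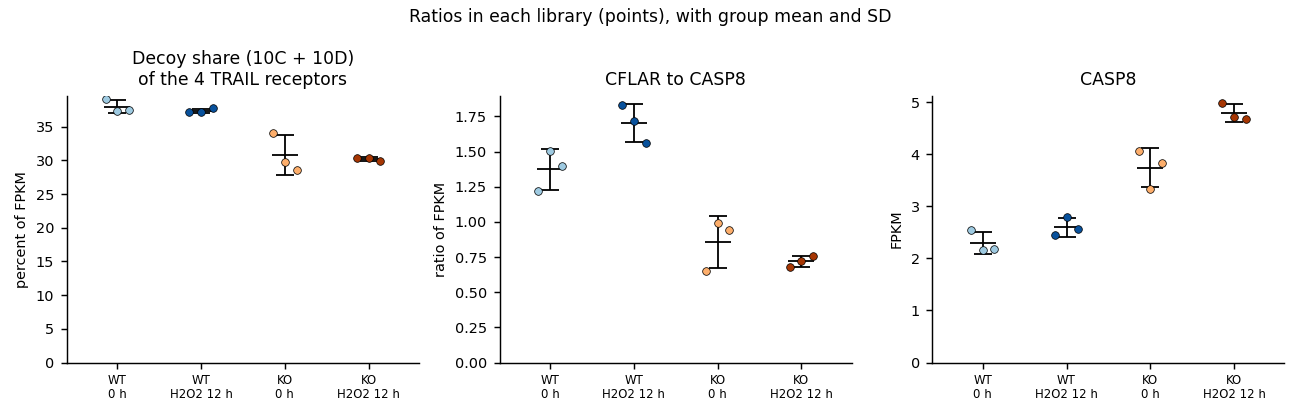
Decoy share of the summed TRAIL receptor FPKM in percent (left), ratio of CFLAR to CASP8 FPKM (middle) and FPKM of CASP8 (right) in each library (points), with group mean and SD (bars), on linear axes from 0. The 6 ATG7 KO libraries lie below the 6 WT libraries in the decoy share and in the CFLAR to CASP8 ratio, and above them for CASP8.

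TNFSF10, the gene of the ligand TRAIL, lies on chromosome 3 (172505508 to 172523507, minus strand) and was read at a low level throughout, with 12 to 58 reads per library. The bases before its start site that are in no annotated exon, chr3:172523508-172523680 on the minus strand, are shown because TNFSF10 changed with H2O2 and its promoter is known to respond to interferons. This stretch, like the promoter sequences further on, is from RefSeq (GRCh38.p14). It holds 1 match to the core of an interferon-stimulated response element (TTTCNNTTT), 187 bases before the start site and printed in capitals, and a TATAAA match 31 bases before the start lies outside the printed stretch.
TNFSF10: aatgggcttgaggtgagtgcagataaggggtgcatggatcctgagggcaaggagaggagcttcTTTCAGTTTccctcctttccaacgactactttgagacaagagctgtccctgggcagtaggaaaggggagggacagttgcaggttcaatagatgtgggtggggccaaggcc
On either strand, TTTCNNTTT occurs in 10.5% and TATAAA in 11.5% of the 35116 windows searched, which run from 250 bases before to 50 bases after a start site. A match describes letters and no binding.

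TNFSF10 was at 0.198, 0.188 and 0.276 FPKM in untreated WT cells and at 0.543, 0.729 and 0.971 FPKM after H2O2, without overlap. Levels in ATG7 KO cells were 0.454, 0.339 and 0.451 FPKM without and 0.555, 0.824 and 0.697 FPKM with H2O2, also without overlap. It rose by 1.75 ± 0.32 in WT cells (adjusted p = 4.06e-06). In the KO line the log2 change was 0.73 ± 0.25 with an adjusted p of 0.0476, which missed the threshold. The responses differed by -1.02 ± 0.40 (95% interval -1.88 to -0.16, adjusted p = 0.0689), and the untreated groups differed by 0.90 ± 0.29 (adjusted p = 0.0716), although no untreated library of the 2 lines overlapped. After H2O2 the groups overlapped, and the difference was -0.12 ± 0.25.

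FADD, the adaptor, lies on chromosome 11 (70203163 to 70207390, plus strand). It was at 4.46, 4.28 and 4.50 FPKM in untreated and at 5.93, 3.6 and 5.24 FPKM in treated WT cells, so these groups overlapped. The KO line was at 9.42, 8.53 and 7.89 FPKM without and at 6.63, 6.32 and 7.11 FPKM with H2O2, and the treated libraries were the lower ones. FADD was 1.95-fold higher in untreated ATG7 KO than in untreated WT cells (log2 0.96 ± 0.12, adjusted p = 0.00208), the largest difference between untreated lines among the members. After H2O2 it was 1.34-fold higher (0.43 ± 0.13, adjusted p = 0.0068). This last call was lost when treated WT replicate 2, the lowest library, was left out (0.25, adjusted p = 0.0852), and also without treated ATG7 KO replicate 1 (0.44, adjusted p = 0.0174) or 3 (0.39, adjusted p = 0.0344). The untreated call was lost without any 1 of the WT libraries (0.95 to 0.98, adjusted p from 0.0184 to 0.0201) or ATG7 KO replicate 2 (0.97, adjusted p = 0.0102), and it held without ATG7 KO replicate 1 (0.90, adjusted p = 1.2e-10) or 3.

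The response of FADD to H2O2 was 0.16 ± 0.14 in WT cells (adjusted p = 0.319) and -0.37 ± 0.12 in the KO line (adjusted p = 0.0369), and neither passed. The responses differed by -0.53 ± 0.22 (95% interval -0.99 to -0.06, adjusted p = 0.0828). FADD is covered by 102 to 286 reads per library. Of the FADD sequence, 51.1% of the 50-base words also occur in AP000879.1, an antisense transcript over the same locus, in which no read was counted. How reads over both were counted is not given, so the level of FADD and its place in the order may depend on it. The bases before the FADD locus, chr11:70203046-70203162 on the plus strand, are shown for comparison with TNFSF10, since FADD did not pass with H2O2. They hold 1 GC box (GGGCGG, on the other strand, in capitals) and no match to the interferon element core.
FADD: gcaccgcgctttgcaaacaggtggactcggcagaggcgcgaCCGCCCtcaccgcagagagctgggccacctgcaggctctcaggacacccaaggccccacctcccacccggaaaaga
For FAS, whose level moved most between times in ATG7 KO cells after that of TNFRSF10C, the stretch outside exons is short (chr10:88990548-88990581, plus strand) and holds an AP-1 match (TGANTCA, in capitals) 242 bases before a start site.
FAS: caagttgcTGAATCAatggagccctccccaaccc
TGANTCA also occurs 21 bases after the FADD start site and 160 bases before another start site of CFLAR, outside the stretches printed. It occurs in 7.71% and GGGCGG in 45.0% of the windows searched. The motifs also searched were GGANTTTCC for NF-kB (1.64% of windows) and TTGCATCA for CHOP and ATF4 (0.866%), neither of which was found in a window of FAS, FADD, CFLAR or TNFSF10.

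CFLAR, the gene of c-FLIP, lies on chromosome 2 (201116104 to 201176687, plus strand). It was at 3.10, 3.25 and 3.05 FPKM in untreated WT cells and at 4.47, 4.79 and 3.99 FPKM after H2O2, without overlap. In ATG7 KO cells it was at 2.64, 3.31 and 3.6 FPKM without and at 3.38, 3.40 and 3.55 FPKM with H2O2. These ATG7 KO groups overlapped, and all 3 treated ATG7 KO libraries were below all 3 treated WT libraries. CFLAR rose 1.40-fold in WT cells (log2 0.49 ± 0.06, adjusted p = 2.27e-10), while the change in ATG7 KO cells was 0.11 ± 0.13 (95% interval -0.20 to 0.42, adjusted p = 0.539), or -0.02 without untreated ATG7 KO replicate 1. The treated lines differed by -0.37 ± 0.05 (adjusted p = 5.2e-07), or 0.776 of the WT level, and the untreated lines by 0.02 ± 0.13 (adjusted p = 0.918).

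The difference between the CFLAR responses was -0.38 ± 0.15 with an adjusted p of 0.0704. Without untreated ATG7 KO replicate 1, the library with the lowest CFLAR level, it was -0.49 with an adjusted p of 1.13e-07, so this call depends on that library. CFLAR has an exon length of 22529 bases in the annotation, and when the counts were corrected for gene length the difference of responses was -1.0 (adjusted p = 0.00019). Of its 50-base words 14.1% also occur in other genes, chiefly the pseudogene IMPDH1P10, with 12 reads in all libraries together, and the antisense transcript CFLAR-AS1, with 184. The bases before 1 of several start sites are shown because CFLAR passed in WT cells with a small change (chr2:201140028-201140185, plus strand). This stretch holds 2 GC boxes, in capitals, and no match to the interferon element core, AP-1, NF-kB or CHOP motifs.
CFLAR: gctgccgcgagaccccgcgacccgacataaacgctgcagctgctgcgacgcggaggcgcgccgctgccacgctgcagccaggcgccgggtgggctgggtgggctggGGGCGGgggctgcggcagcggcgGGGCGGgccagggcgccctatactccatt

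The ratio of CFLAR to CASP8, the gene of the protease that c-FLIP competes with, was computed in each library. It was 1.22, 1.5 and 1.40 in untreated and 1.83, 1.72 and 1.56 in treated WT cells, and 0.649, 0.992 and 0.941 in untreated and 0.678, 0.720 and 0.760 in treated ATG7 KO cells. Every ATG7 KO library was below every WT library. The ratio depends on the annotated exon lengths, 22529 bases for CFLAR, so its place above or below 1 has no meaning and only differences between groups are read. The log2 difference between the lines was -1.24 with and -0.69 without H2O2 (p = 0.1 in each, the smallest p of the exact permutation test). With H2O2 the log2 ratio moved by 0.31 in WT (p = 0.1, exact permutation test), without overlap, and by -0.24 in ATG7 KO cells (p = 0.4, exact permutation test), with overlap. CASP8 itself was higher in ATG7 KO cells, by 0.88 ± 0.08 with (adjusted p = 1.44e-11) and 0.70 ± 0.12 without H2O2 (adjusted p = 0.00791).

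Between the lines after H2O2, 1 of the 7 members other than TNFRSF10C was higher in ATG7 KO cells, FADD, and 2 were lower, TNFRSF10D and CFLAR, beside 27.7% and 27.9% of all genes tested. Without H2O2, 1 of 7 was higher, FADD, and 1 was lower, TNFRSF10D, beside 4.42% and 3.28% of all genes. By edgeR 0 members met the study's full cut-offs in a comparison of the lines, which 7.46% of the genes tested with H2O2 and 3.5% without H2O2 met, and the count was 0 also with DESeq2 or with an unadjusted p below 0.05 in place of the adjusted p. The spread between replicates was larger in the comparisons that hold untreated ATG7 KO replicate 1, with a biological coefficient of variation of 0.162 for the untreated lines against 0.0416 for the treated lines. Its part in the lower number of calls was not tested beyond leaving that library out, which gave 1 higher and 2 lower members, beside 18.2% and 17.9% of all genes.

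**Figure D3:**
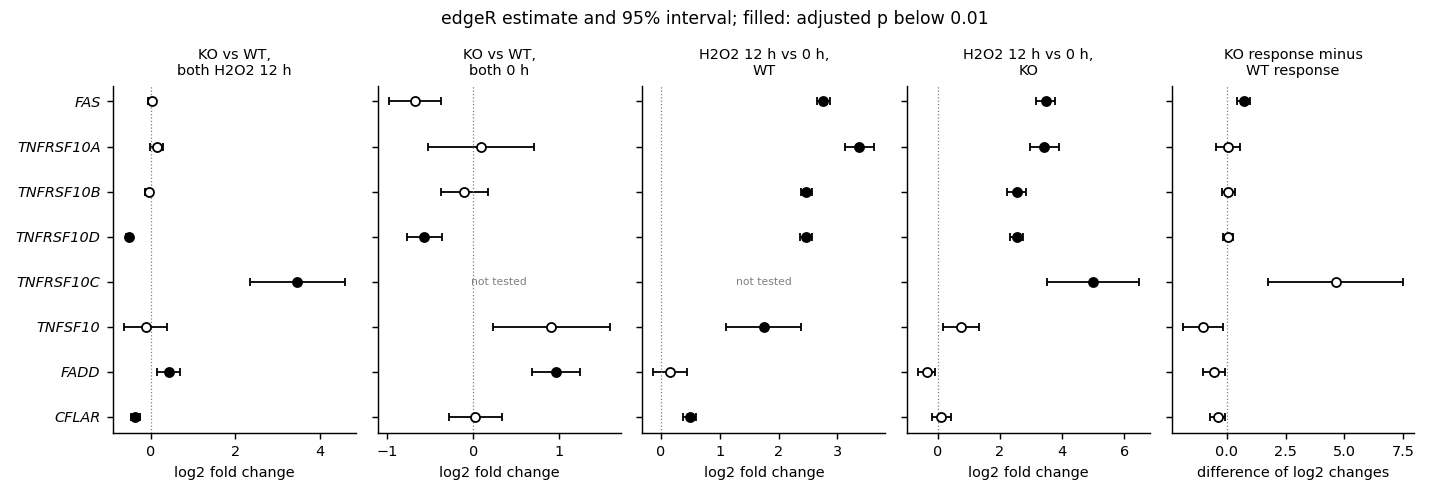
Log2 fold change of the 8 genes (points) with its 95% interval (bars) in 5 comparisons, with a separate axis for each. Filled points passed an adjusted p of 0.01, which 6 genes did for H2O2 in WT cells and 5 in ATG7 KO cells, 1 of them TNFRSF10C, whose calls the filter on low counts had fixed, and FAS is the only filled point for the difference of responses.

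Of 8 other death receptors and soluble decoys, 6 were tested in WT cells. With H2O2 4 rose and 0 fell, beside 30.9% and 30.1% of all genes. The 4 include EDA2R, whose call was fixed by the filter on low counts. NGFR, the neurotrophin receptor with a death domain, rose by 3.39 ± 0.21 in WT (adjusted p = 1.01e-08) and 3.35 ± 0.20 in the KO cells (adjusted p = 4.65e-05), from 0.664 to 7.08 and from 1.19 to 12.2 FPKM. EDA2R, the ectodysplasin A2 receptor, was at 0.0311 FPKM in untreated and only 0.327 FPKM in treated WT cells. It passed the filter only through the treated WT libraries, so no test of it is given. TNFRSF11B, which encodes osteoprotegerin, a soluble receptor that also binds TRAIL, rose by 1.39 ± 0.25 in WT (adjusted p = 4.53e-06) and by 1.0 ± 0.18 in the KO cells (adjusted p = 0.00417). TNFRSF21 (DR6) rose by 0.66 ± 0.07 and 0.55 ± 0.10. TNFRSF1A, the main TNF receptor, was at 30.8 FPKM before and 31.3 FPKM after H2O2 in WT cells, and its log2 change was 0.02 ± 0.05. Between the treated lines 4 of the 6 tested were higher in ATG7 KO cells, TNFRSF21, TNFRSF11B, NGFR and TNFRSF1A, beside 27.7% of all genes. EDA2R was at 0.110 FPKM in treated ATG7 KO cells, against 0.327 FPKM in treated WT cells, and its call was likewise fixed. TNFRSF25 did not pass in any comparison, EDAR was below 0.03 FPKM in every group, and TNFRSF6B held no read.

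Ligands of these receptors were at low levels. FASLG, the ligand of FAS, was at most at 0.0424 FPKM in any group. TNF had 0 reads in the 3 untreated WT libraries and 18, 12 and 32 in the treated WT libraries, and 8, 1 and 6 reads in the untreated and 0 in the 3 treated ATG7 KO libraries. TNF passed the filter on low counts only in comparisons with treated WT cells, in which it was high, so no test of it is given. The other 3 listed ligands tested for a difference of responses did not pass. LTA, lymphotoxin alpha, had 1, 7 and 1 reads in untreated WT and 2, 3 and 5 in untreated ATG7 KO cells. With H2O2 it was at 2.03 FPKM in WT and 0.826 FPKM in ATG7 KO cells. LTA also passed the filter only through treated libraries, so no test of its response is given. TNFSF15 was at 0.270 FPKM in treated ATG7 KO and 0.0617 FPKM in treated WT cells. Between the lines it passed the filter only through ATG7 KO libraries, so no test of it is given. TNFSF12 did not pass in any comparison, and TNFSF11 held no read.

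Downstream of the receptors, 7 of 11 caspase and Bid list genes rose and 3 fell with H2O2 in WT cells, beside 30.9% and 30.1% of all genes. In ATG7 KO cells 3 rose and 1 fell, beside 13.6% and 12.4% (7 and 2, beside 29.8% and 28.6%, without untreated ATG7 KO replicate 1). APAF1, the core of the apoptosome, rose by 1.8 ± 0.06 and 1.84 ± 0.14. BID, which links death receptors to mitochondria, rose by 0.52 ± 0.06 in WT cells and had a change of -0.24 ± 0.18 in ATG7 KO cells (adjusted p = 0.302), and the difference of -0.77 ± 0.19 had an adjusted p of 0.0114. Without untreated ATG7 KO replicate 1 the BID values were -0.01 (adjusted p = 0.891) and -0.52 (adjusted p = 3.07e-06). CASP9, the initiator of the apoptosome, fell by 0.54 and 0.93 on the log2 scale, and DFFA and DFFB, the subunits of the DNA fragmentation factor, fell in WT cells by 0.28 and 0.65. In the treated lines CASP8, CASP10 and DFFA were among the genes higher in ATG7 KO cells, and BID was among the lower ones. CASP6 rose by 0.32 ± 0.09 and CYCS by 0.74 ± 0.05 in WT cells.

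Among 20 tested genes of complex II and receptor regulation, 6 rose and 5 fell with H2O2 in WT cells, near the 30.9% and 30.1% of all genes. Their median log2 change was -0.04. TNFAIP3, the ubiquitin-editing enzyme A20, rose by 3.48 ± 0.05 in WT and by 1.84 ± 0.13 in ATG7 KO cells, a difference of -1.64 ± 0.14 (adjusted p = 1.92e-05). PTPN13, a phosphatase that binds FAS, fell by 0.47 in WT cells and had a change of 1.17 ± 0.31 in ATG7 KO cells (adjusted p = 0.0218, or 0.85 and 6.14e-40 without untreated replicate 1), and the difference of responses was 1.65 ± 0.32 (adjusted p = 0.00294). ITCH, a ubiquitin ligase known to act on c-FLIP, was 0.77 ± 0.04 higher in treated ATG7 KO than in treated WT cells, and its response differed by 0.72 ± 0.10 (adjusted p = 0.000389). Between the treated lines 8 of the 20 were higher and 6 lower in ATG7 KO cells, beside 27.7% and 27.9% of all genes. CYLD (-0.71 ± 0.05) and BIRC2 (-0.66 ± 0.04) were among the lower ones. RIPK3, the kinase of necroptosis, was below 0.01 FPKM in every group.

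Lists of other stress genes were set beside the members. All 20 of the p53 target genes listed rose with H2O2 in WT cells and 19 in ATG7 KO cells, CCNG1 being the exception (0.39, adjusted p = 0.0981, or 0.59 and 9.62e-35 without untreated ATG7 KO replicate 1, when all 20 rose), with median log2 changes of 2.71 and 2.79. Of all genes tested 30.9% rose in WT and 13.6% in ATG7 KO cells (29.8% without untreated ATG7 KO replicate 1). BTG2 (6.05 ± 0.10), CDKN1A (4.96 ± 0.05) and PMAIP1 (3.72 ± 0.05) had the largest changes in WT cells. Between the treated lines 14 were higher and 4 lower in ATG7 KO cells, beside 27.7% and 27.9% of all genes, with a median of 0.26. The lower ones were PMAIP1, TIGAR, BBC3 and BTG2. In the interaction 6 of the 20 differed upward, as FAS did, and 2 downward, beside 7.02% and 7.01% of all genes. Among the 6 were ZMAT3 (1.43 ± 0.16) and RRM2B (0.93 ± 0.10), and the 2 were PMAIP1 (-1.72 ± 0.16) and PLK3 (-0.92 ± 0.16). Without untreated ATG7 KO replicate 1, 9 differed upward and 5 downward, while the shares of all genes rose to 17.8% and 16.3%.

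Of 12 genes of the ATF4 and CHOP stress response, of which SESN2 is also in the p53 list, 11 rose in WT cells, beside 30.9% of all genes. In ATG7 KO cells 7 rose and 1, HSPA5, fell, beside 13.6% and 12.4%. Without untreated replicate 1, 9 rose, beside 29.8%. After H2O2, 11 of the 12 were lower in ATG7 KO cells, beside 27.9% of all genes, with a median of -1.25. DDIT3, the gene of CHOP, rose by 1.66 ± 0.13 in WT cells, and its change in ATG7 KO cells was 0.48 ± 0.37 (adjusted p = 0.326), or 1.02 without untreated replicate 1 (adjusted p = 6.13e-06). The treated lines differed at DDIT3 by -1.27 ± 0.13 and at TNFRSF10B, a known CHOP target, by -0.05 ± 0.04. Whether CHOP acts on TNFRSF10B in these cells was not tested. Of the interferon genes, 4 of 12 rose and 4 fell in WT cells, near the 30.9% and 30.1% of all genes, with IRF1 at 2.16 ± 0.07 and STAT2 falling by 1.24. In ATG7 KO cells 2 of 13 rose and 4 fell, beside 13.6% and 12.4% (3 and 6 of 14, beside 29.8% and 28.6%, without untreated ATG7 KO replicate 1). Untreated ATG7 KO cells had higher IFIT2 (1.15 ± 0.21) and IFIT3 (0.92 ± 0.12) than untreated WT cells, 2 of 13 with a list median of 0.74, beside 4.42% of all genes. Without untreated ATG7 KO replicate 1, 8 of 13 were higher, with a median of 0.53, beside 18.2% of all genes. With all libraries TNFSF10 was at 0.90 ± 0.29, which did not pass.

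The 4 TRAIL receptor genes are neighbours on chromosome 8, and several noncoding transcripts lie among them. AC107959.2, which runs on the opposite strand over a part of TNFRSF10B, had 2, 5 and 1 reads in untreated and 139, 108 and 142 reads in treated WT cells. The KO line had 9, 5 and 7 reads without and 15, 11 and 8 reads with H2O2. The treated WT libraries were thus far above all others, although TNFRSF10B did not separate the treated lines. AC107959.2 passed the filter on low counts only in comparisons with treated WT cells, in which it was high, so no test of it is given. AC107959.1, on the strand opposite to AC107959.2, behaved likewise, at 2.29 FPKM in treated WT and 0.262 FPKM in treated ATG7 KO cells. It is given without a test for the same reason. TNFRSF10A-AS1, the antisense transcript of TNFRSF10A, rose in both lines with TNFRSF10A, to 2.64 and 2.70 FPKM, and the treated lines differed by 0.02 ± 0.32. The strand setting of the counting is not given, so reads of a gene and of its antisense partner cannot be told apart where they overlap. Of the 50-base words of TNFRSF10B 1.35%, of TNFRSF10D 0.831% and of TNFRSF10A 12.4% occur in another annotated gene.

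FAS overlaps ACTA2, the smooth muscle actin gene, on the opposite strand, with which it shares 7.09% of its 50-base words. ACTA2 was at 1.56 FPKM in untreated and 3.55 FPKM in treated WT cells, and at 1.06 and 2.48 FPKM in ATG7 KO cells. ACTA2 rose by 1.18 ± 0.14 and 1.22 ± 0.17, so its difference of responses was 0.04 ± 0.21 (adjusted p = 0.904), against 0.71 for FAS. CASP10 and CASP8 lie 6194 and 56756 bases from CFLAR on the same chromosome. Between the treated lines CASP10 (0.45 ± 0.15, adjusted p = 0.00776) and CASP8 were higher in ATG7 KO cells, whereas CFLAR was lower.

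The genes most like each member were sought by Pearson's r of log2 CPM (counts scaled to library size) over the 12 libraries, among 10726 protein-coding genes with a mean FPKM above 1. The libraries share their treatment groups, so r is high for any gene that changes with H2O2, and these values are a description. For TNFRSF10D the closest were PPM1D, a phosphatase known as a p53 target (r = 0.999), KITLG, the ligand of the receptor KIT (0.999) and ZNF654 (0.998). PPM1D was at 4.89 and 27.6 FPKM in WT and at 3.41 and 19.5 FPKM in ATG7 KO cells. For FAS they were NECTIN4, PA2G4 and SGMS1 (0.997, 0.997 and 0.996), for TNFRSF10A they were APAF1, E2F7 and ZNF468 (0.997, 0.997 and 0.996), and for TNFRSF10B they were PPP4R3A, MTA2 and C3orf52 (0.998, 0.998 and 0.997). Among the members themselves, TNFRSF10A and TNFRSF10B were closest to each other (0.995), and TNFRSF10D was closer to FAS (0.987) than to TNFRSF10A (0.965). CFLAR was closest to ICAM1 (0.955), ZNF286B and TMEM200B, with ICAM1 at 59.1 and 106 FPKM in WT and 52.3 and 60.7 FPKM in ATG7 KO cells. FADD was closest to PPT2 (0.957), ZNF22 and DNER, and its r with the other members with a mean FPKM above 1 was between -0.41 and -0.15.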

How the data were processed

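RNA of HLE-B3 cells was sequenced in 12 libraries, 3 for each of 4 groups given by the labels. The deposited counts are whole reads per gene, made by the authors with HISAT2 2.0.5 and featureCounts 1.5.0-p3 on GRCh38 per the submitters' processing notes. How reads on several genes or places were counted is not given in the sources used here. The authors also deposited FPKM, in which each count is divided by gene length and library total, times 1 factor per library. The members and the gene lists were chosen with earlier results of these data known, so no list is independent evidence.

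Counts were tested with edgeR 4.0.16 in R 4.3.3 by robust quasi-likelihood fits, with TMM scaling, filterByExpr (minimum count 10) and Benjamini-Hochberg adjustment over all genes tested. Each pair of groups used its own 6 libraries, and the difference of responses used all 12. Per-library ratios of FPKM were compared by exact permutation. Alternatives were DESeq2 1.42.0, limma 3.58.1 on log2(FPKM + 1) or log2(FPKM + 0.1), other scalings and filters, a gene length correction, a replicate block and leaving out each library. The edgeR fit was tested on simulated data. Genes were named from lists of other death receptors, ligands, caspases, complex II regulators, p53 targets, ATF4 and CHOP genes and interferon genes. All genes of the first 3 lists qualified, though some values are not reported here, and of the others up to 3 called genes with the largest and 3 with the smallest log2 fold change. Some named ones were chosen after their values were seen (RIPK3, DDIT3 and the exceptions to a count). Promoter windows on 1 chromosome, that of the TRAIL receptors, were not searched. Shared sequence was measured as 50-base words of GENCODE 29 exons. DIABLO names 2 gene identifiers and was left out. Depth was similar in all libraries, so precision is set by replicate spread and, for TNFRSF10C and TNFSF10, by few reads.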

Additional observations from a re-analysis of the deposited data

Results flagged for a closer look

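The response of FAS to H2O2 differed between the lines. In the interaction test of edgeR over all 12 libraries it was 0.7090 log2 units larger in ATG7 KO than in WT cells (adjusted p = 0.00254). The untreated ATG7 KO libraries were the lower ones (4.11 ± 0.66 against 6.57 ± 0.15 FPKM, SD, n = 3), and the treated groups overlapped (45.8 ± 1.1 and 44.8 ± 2.6 FPKM). The difference kept its direction and passed in all 22 settings run, with values from 0.61 to 0.84 and adjusted p from 1.65e-13 to 0.00902. Its cause was not tested.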

How the results depend on the processing

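The counts here include TNFRSF10C where it was tested, although its calls were fixed by the filter on low counts. The main counts without it are those of the Results. The share of all genes called is not given for each setting, so these counts describe the processing only. With H2O2, 6 members rose in WT cells in each setting run, and 5 in ATG7 KO cells, except 4 with at least 10 counts in every library, which removes TNFRSF10C, and 6 at an adjusted p below 0.05, with TNFSF10. Between the treated lines, 1 member instead of 2 was higher in ATG7 KO cells with DESeq2, upper quartile scaling, limma on log2(FPKM + 1) or log2(FPKM + 0.1) and all 12 libraries in 1 fit, and 0 with at least 10 counts in every library. In the fit of all 12 libraries 1 instead of 2 was lower. Leaving out a library gave 1 to 2 higher and 2 to 3 lower. The calls lost in tested genes were those of FADD and CFLAR. TNFRSF10A (0.25, adjusted p = 0.00336) was gained with the gene length correction, and TNFRSF10B (-0.10, adjusted p = 0.00249) without treated WT replicate 3. Between the untreated lines, 2 members instead of 1 were lower with DESeq2, no filter on low counts, the gene length correction, all 12 libraries in 1 fit or an adjusted p below 0.05. Leaving out a library gave 0 to 1 higher and 0 to 2 lower, the 2 lower (TNFRSF10D and FAS) without untreated ATG7 KO replicate 1 and 0 lower without any other library. At an adjusted p below 0.05, 1 member, FADD, fell with H2O2 in ATG7 KO cells. For the difference of responses, 2 members instead of 1 differed upward with DESeq2, no filter, limma on log2(FPKM + 1) or log2(FPKM + 0.1) and an adjusted p below 0.05, and 1, CFLAR, downward with the gene length correction. Leaving out a library gave 1 to 2 upward and 0 to 1 downward. The cause of these changes was not tested.

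The replicate number as a block gave 0 higher and 0 lower members between the untreated lines and changed no other count. Same-numbered libraries do not pair: the correlation of their deviations from group means was between -0.0951 and 0.1130 over 18 pairs.

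Signs that turned were all of differences that had not passed. Upper quartile scaling gave -0.0164 for FAS between the treated lines, and the gene length correction gave -0.0235 for FADD with H2O2 in WT and -0.0810 for CFLAR in ATG7 KO cells. When libraries were left out, FAS ranged from -0.0127 to 0.0674 and TNFSF10 from -0.3155 to 0.1156 between the treated lines, and TNFRSF10A from -0.1529 to 0.2802 and CFLAR from -0.0763 to 0.1481 between the untreated lines. The response of CFLAR in ATG7 KO cells ranged from -0.0184 to 0.2052, the difference of responses from -0.1247 to 0.3040 for TNFRSF10A and from -0.0297 to 0.1252 for TNFRSF10B, and the change of the decoy share in ATG7 KO cells from -1.7065 to 1.0602 percentage points. For TNFRSF10C and TNFSF10 the number of reads limits what can be detected.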
